A study of Haematococcus lacustris with 7 samples.

Results

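The sequences described here are the transcripts of the green microalga *Haematococcus pluvialis* (named *Haematococcus lacustris* in the sample records) whose annotation speaks of starch, glycogen, other glucans or the cell wall. They were found in the annotation table of the assembled transcriptome by the names of their Gene Ontology (GO) terms, GO being a controlled vocabulary for molecular functions, biological processes and cellular locations. A sequence was taken when at least 1 of its term names held starch, glycogen, amylase, glucan, cellulose, cell wall, mannan, mannose biosynth, xylan or pectin. Names with fungal-type or peptidoglycan were not counted. This gave 152 of the 6812 annotated sequences (2.23%), in 141 Trinity components. A component is a group of assembled sequences that share reads, such as the variants of a gene.

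The assembly pooled 7 libraries from 1 culture of a laboratory strain that had been divided in its growth phase. These were an untreated control (N), jasmonic acid at 25 mg/L for 1, 6 and 24 h (JA1, JA6 and JA24), and salicylic acid at 25 mg/L for 1, 6 and 24 h (SA1, SA6 and SA24). Each condition had 1 library. The table holds 4 columns of text and no value per library, so read depth, expression levels and the effect of either hormone on these sequences are not analysed here. Every value below is a count of sequences in the table, without replicates and without a test. Protein and base sequences of the members are not shown here.

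Green algae store carbon as starch granules inside the chloroplast. ADP-glucose is made by glucose-1-phosphate adenylyltransferase and added to growing chains by starch synthases, branching enzymes introduce the branch points, and isoamylases trim misplaced branches. Breakdown begins with the phosphorylation of the granule surface by alpha-glucan, water dikinase and proceeds through amylases, debranching enzymes and phosphorylases. Glycogen is the related store of animals, fungi and bacteria, so that a term named for glycogen on an algal sequence can stand for a homologous enzyme. The wall of *Haematococcus* thickens as flagellated cells turn into resting cysts, the stage in which astaxanthin is known to accumulate.

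The word list found 41 distinct terms, 23 for processes, 14 for functions and 4 for locations. A single rule term was listed for 110 members, 2 terms for 27, 3 for 10, 4 for 4 and 5 for 1. By the meaning of their terms, the members fell into role groups that can overlap. Starch and glycogen synthesis held 21 sequences, starch and glycogen breakdown 20, other starch and glycogen terms 19, and cellulose and other glucans 19. Mannose held 2, xylan and pectin 1, and the cell wall 84. In all, 141 members were in 1 group, 8 in 2 groups and 3 in 3 groups. The label of the set thus covers 2 unlike collections. The role groups of starch and glycogen, glucans, mannose, or xylan and pectin held 77 members. The other 75 had cell wall terms alone, and for 61 of these (40.1% of the members) the only matching term was the location cell wall.

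**Figure D1:**
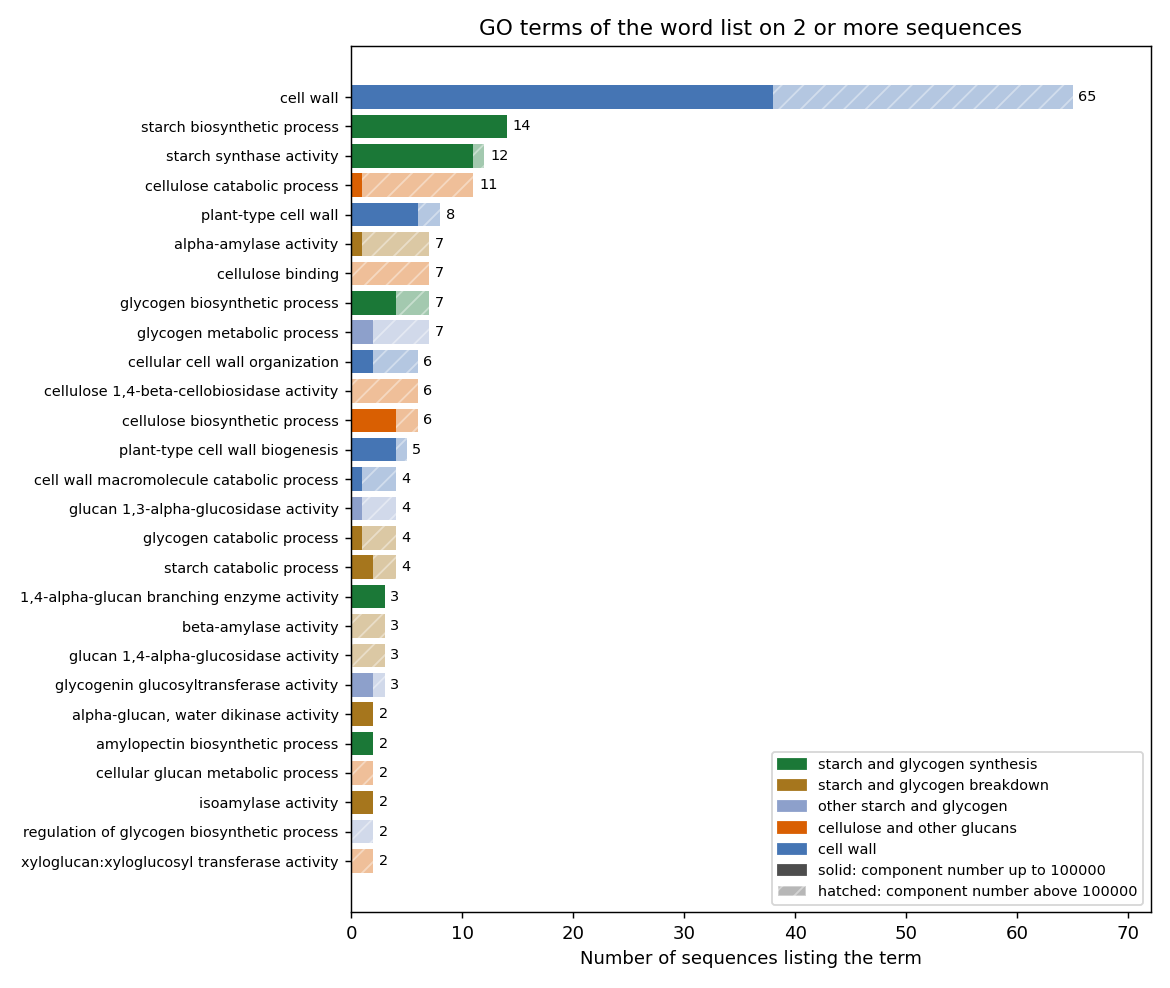
Number of sequences listing each of the 27 terms of the word list that were found on 2 or more sequences (x axis), coloured by role group. The solid part of a bar counts sequences with a Trinity component number up to 100000 and the hatched part those above it. The location cell wall was listed for 65 sequences, far ahead of starch biosynthetic process with 14. The bars of the starch synthesis terms are nearly all solid, but glycogen biosynthetic process, in the same colour, has 3 of 7 hatched. Those of cellulose breakdown, beta-amylase and glucan 1,4-alpha-glucosidase are nearly all hatched.

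Starch and glycogen synthesis was led by the synthases. Starch synthase activity, the elongation of glucan chains, was listed for 12 sequences in 9 components. Of these, 9 also listed amyloplast, the starch-storing form of the plastid, and the other 3 listed no location at all. An identical set of 4 terms (starch synthase activity, starch biosynthetic process, amyloplast and chloroplast) was found on 7 sequences in 5 components. They were comp59532_c0_seq2_10, comp63224_c0_seq2_41, comp63224_c0_seq3_43, comp63751_c0_seq2_12, comp64409_c0_seq4_18, comp64409_c0_seq6_18 and comp65690_c0_seq1_51. Because sequences were annotated by similarity, copies, pieces and relatives of 1 protein can carry the same terms, and the number of genes behind these 7 cannot be read from the table. comp64404_c1_seq1_17 additionally listed NDP-glucose-starch glucosyltransferase activity, the name used for granule-bound synthases. comp63615_c1_seq1_27 listed amylopectin biosynthetic process, the branched fraction of starch, and also listed chloroplast stroma. The remaining 3 synthases, comp58837_c0_seq2_24, comp58837_c0_seq4_40 and comp104992_c0_seq1_3, carried glycogen biosynthetic process in place of starch biosynthetic process.

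The steps before and beside the synthases were also found. Glucose-1-phosphate adenylyltransferase activity, which supplies ADP-glucose, was listed for 2 sequences of the table, comp54308_c0_seq1_15 and comp61173_c0_seq1_30, and both were members with chloroplast terms. Phosphoglucomutase activity, which forms glucose 1-phosphate, was listed for 7 sequences of the table. Only comp61909_c0_seq3_12 among them carried a starch term, together with chloroplast stroma, chloroplast envelope, apoplast and response to cold. The branching enzyme term was listed for 3 sequences in 2 components, comp62809_c0_seq2_20, comp62809_c0_seq3_18 and comp65564_c1_seq1_52. All 3 carried the same 6 terms, amyloplast among them. The debranching enzyme comp59701_c0_seq1_58 listed chloroplast isoamylase complex and amylopectin biosynthetic process, and so belonged to synthesis and breakdown at once. The last 2 members of the group, comp1309742_c0_seq1_1 and comp1315197_c0_seq1_1, were of another kind. They listed phosphorylase kinase activity, calmodulin binding and the phosphorylase kinase complex, the calcium-dependent switch of glycogen metabolism in animals.

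The members listed amyloplast for 12 of its 16 sequences in the table. The other 4 listed glutamate synthase (NADH) activity and no polysaccharide term. Any plastid location (a term name with chloroplast, plastid, thylakoid or amyloplast) was listed for 16 of the 21 synthesis members (76.2%), compared with 742 of the 6812 annotated sequences (10.9%). Of all 152 members, 41 (27.0%) had a plastid location, and for 40 of them it did not come from a term of the word list itself.

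**Figure D2:**
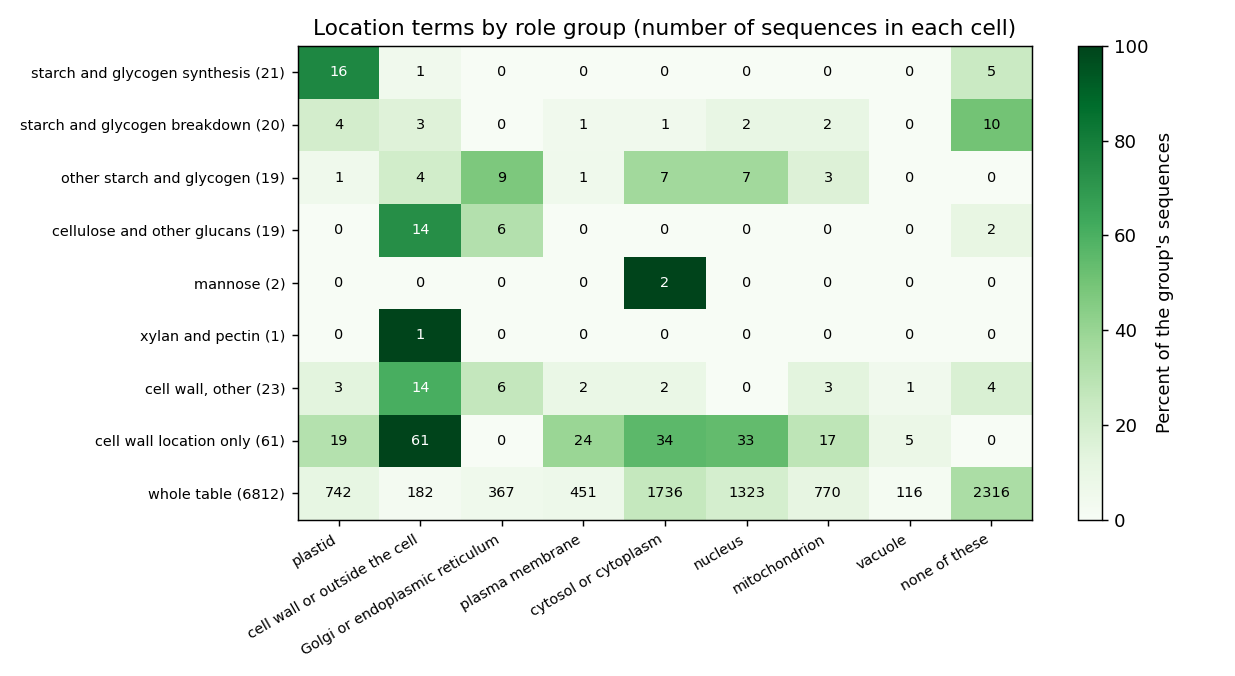
Number of sequences with a location term of each kind (numbers in cells) and their percent of the group (colour, 0 to 100%), for the role groups and for the whole table, with group sizes in brackets. A sequence can have several locations. The nuclear counts take any location name with nucle, which includes mitochondrial nucleoid, as for comp752807_c0_seq1_4 in breakdown. Plastid terms stand out for starch and glycogen synthesis (16 of 21) and cell wall or extracellular terms for cellulose and other glucans (14 of 19). In the bottom member row the 61 in the cell wall column is the term that chose these sequences.

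Starch and glycogen breakdown was spread over more kinds of enzyme and more places. Alpha-amylase activity, the internal cleavage of starch chains, was listed for 7 sequences, and beta-amylase activity, which releases maltose from chain ends, for 3. Together these were 9 sequences, since comp1211199_c0_seq1_3 listed both activities. None of the 9 had a plastid location, and 3 of them (comp732859_c0_seq1_1, comp1031010_c0_seq1_3 and comp1211199_c0_seq1_3) listed extracellular region. The beta-amylase comp1021184_c0_seq1_3 listed response to herbivore and starch catabolic process, and comp1021972_c0_seq1_4 polysaccharide catabolic process.

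The plastid members of the group were 4 other enzymes. Isoamylase activity was listed for comp59701_c0_seq1_58 and comp64463_c1_seq1_39, and the latter also carried chloroplast starch grain and starch catabolic process. Alpha-glucan, water dikinase activity, which marks the granule for degradation, was listed for comp57468_c0_seq1_7 and comp63792_c1_seq2_42. The first of these also listed cold acclimation, response to symbiotic fungus and, besides the chloroplast stroma and envelope, the mitochondrion. Glycogen phosphorylase activity, which releases glucose 1-phosphate, was listed for comp58076_c1_seq1_10 with no location other than intracellular.

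Glucan 1,4-alpha-glucosidase activity, the removal of glucose from chain ends, was listed for comp1017611_c0_seq1_3, comp1319328_c0_seq1_3 and comp1475802_c0_seq1_3. Glycogen catabolic process without one of these activities was listed for 3 further sequences. comp685576_c0_seq1_4 and comp992792_c0_seq1_1 listed alpha-glucosidase activity and the lysosome, where that enzyme degrades glycogen in animals, and the former also listed cardiac muscle contraction and tongue morphogenesis among its 14 terms. comp752807_c0_seq1_4 listed 23 terms, among them urea cycle and carbamoyl-phosphate synthase (ammonia) activity, the entry enzyme of the urea cycle.

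The other starch and glycogen terms held regulators and enzymes of several kinds. Of the 19 sequences, 9 (47.4%) listed a term name with kinase or phosphatase, compared with 684 of the 6812 annotated sequences. This match by word also took in diphosphatase and triphosphatase names, which are not names of regulators. Among the 9, comp826706_c0_seq1_9 was counted through diphosphatase names alone. Glycogen metabolic process was listed for 7 sequences, 5 of which carried a phosphatase activity. The protein phosphatase comp1332389_c0_seq1_2 had 30 terms, including protein phosphatase type 1 complex and several cell cycle checkpoints. Regulation of glycogen biosynthetic process was listed for comp812500_c0_seq1_1 with 39 terms and comp1325464_c0_seq1_1 with 36, both with TOR signaling pathway, the growth-controlling kinase pathway of eukaryotes. Its negative regulation was listed for comp826706_c0_seq1_9 with 32 terms, among them insulin receptor binding and bone remodeling, and its positive regulation for the kinase comp55463_c0_seq1_10. These 4 sequences held 11 to 39 terms, of which 1 named glycogen. A member had a median of 7 terms and the median over the whole table was 5.

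Glucan 1,3-alpha-glucosidase activity was listed for comp38172_c0_seq1_9, comp701981_c0_seq1_2, comp859879_c0_seq1_6 and comp1326970_c0_seq1_3. All 4 listed endoplasmic reticulum and Golgi apparatus, the compartments of glycoprotein processing, where glucosidases trim sugar chains. Glycogenin glucosyltransferase activity, named for the protein that primes glycogen in animals, was listed for comp61706_c2_seq2_29, comp61706_c2_seq3_30 and comp2016881_c0_seq1_1. These were the 3 members found in 3 role groups. They shared 1 set of 7 terms that also held cellulose biosynthetic process, plant-type cell wall, cellular cell wall organization, Golgi apparatus, extracellular region and plasmodesma.

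The group of cellulose and other glucans was led by breakdown. Cellulose catabolic process was listed for 11 sequences in 11 components, and 9 of them listed extracellular region. Cellulose 1,4-beta-cellobiosidase activity, which cuts cellobiose from the ends of cellulose chains, was listed for 6 sequences in 6 components. They were comp264744_c0_seq1_4, comp339888_c0_seq1_5, comp465248_c0_seq1_9, comp613975_c0_seq1_3, comp820790_c0_seq1_4 and comp1336825_c0_seq1_4. All 6 carried the same 4 terms, the others being cellulose binding, cellulose catabolic process and extracellular region. Cellulase activity was listed for 2 sequences of the table, and both were members. Of these, comp329935_c0_seq2_3 listed cellulose binding and extracellular region, and comp51412_c0_seq1_2 a spore formation term. The rest of the 11 were comp993267_c0_seq1_3 and comp1404907_c0_seq1_3 with endoglycosylceramidase activity, which acts on glycolipids, and comp1184841_c0_seq1_2 with beta-glucosidase activity, which splits cellobiose into glucose.

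Cellulose biosynthetic process was listed for 6 sequences, and none of them carried the term of a cellulose synthase, which was listed for 0 sequences of the table. The 6 were the 3 with the glycogenin term, a pair from component comp65121_c0 with GPI anchor biosynthetic process and plant-type cell wall biogenesis, and comp809273_c0_seq1_7, which listed a calcium-release channel activity and autophagic cell death. Xyloglucan:xyloglucosyl transferase activity, which in land plants cuts and rejoins xyloglucan of the growing wall, was listed for comp535263_c0_seq1_8 and comp696047_c0_seq1_2. The former had the most rule terms of any member, 5 of its 12 terms, and also listed response to auxin, brassinosteroid, cold, heat and mechanical stimuli.

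The smaller role groups held few sequences. comp395276_c0_seq1_4 listed mannose biosynthetic process with phosphomannomutase activity. comp604674_c0_seq1_4 listed GDP-mannose biosynthetic process with mannose-1-phosphate guanylyltransferase activity, which makes the mannose donor of glycoproteins, and cell wall mannoprotein biosynthetic process. That activity was listed for 6 sequences of the table, and the other 5 had no term of the word list. Xylan and pectin catabolic processes were listed for 1 sequence, comp1259160_c0_seq1_3, together with feruloyl esterase activity, which frees phenolic acids from wall polymers in land plants.

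The 61 sequences of the location cell wall alone were described by their other terms. Among the 61 sequences chosen by the location cell wall alone, 17 listed structural constituent of ribosome, 15 of them with the cytosolic small ribosomal subunit and 2 with the large subunit. A further 8 listed the proteasome complex and nucleoside-triphosphatase activity, 5 the phragmoplast (the structure that builds the dividing wall in land plants) with nucleoside-triphosphatase activity, 4 threonine-tRNA ligase activity and 4 succinate-CoA ligase activity of the tricarboxylic acid cycle. RNA helicases, peptidases of respiratory complex III, nuclear pore import proteins and gamma-glutamyl peptidases were 3 each. Succinate dehydrogenase, betaine-aldehyde dehydrogenase, unfolded protein binding and proton-transporting ATPase were 2 each, and 3 sequences had none of these terms. The 15 small-subunit members made up 40.5% of the 37 sequences with that location in the table. Plasma membrane locations were listed for 24 of the 61 (39.3%), compared with 6.62% of all annotated sequences. Nuclear locations, nucleolus included, were listed for 33 of the 61 (54.1%), compared with 19.4% of all annotated sequences. That 19.4% also took in mitochondrial nucleoid, which comp752807_c0_seq1_4 listed. Response to cadmium ion was listed for 9 of the 61 and for 104 sequences of the table.

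**Figure D3:**
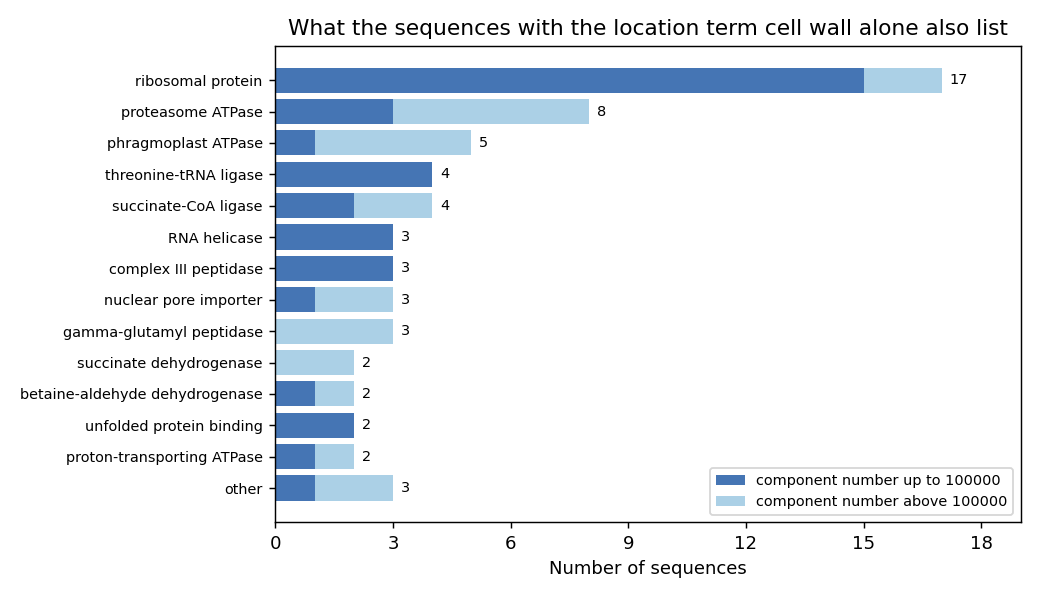
Number of the 61 sequences with the location cell wall as their only matching term (x axis), by the protein kind that their other terms name (y axis). Each sequence is counted once, dark for component numbers up to 100000 and light above. Ribosomal proteins were the largest kind with 17 sequences, 15 of them up to 100000, and proteasome ATPases followed with 8.

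The other 23 cell wall members listed a process or a plant-type wall term. Plant-type cell wall was listed for 8 sequences. Besides the 3 with the glycogenin term, these were a pair of cytochrome-b5 reductases from comp57091_c2, a pair of peroxiredoxins from comp60034_c1 with chloroplast stroma and thylakoid, and the protein disulfide isomerase comp824888_c0_seq1_2. Plant-type cell wall biogenesis was listed for 5 sequences, among them comp51627_c0_seq5_13 and comp1373534_c0_seq1_2 with microtubule-severing ATPase activity, and comp63903_c0_seq2_22 with trehalose-phosphate synthase activity and sugar mediated signaling pathway. Cell wall macromolecule catabolic process was listed for 4 sequences, of which comp19219_c0_seq1_11, comp629756_c0_seq1_5 and comp857441_c0_seq1_1 carried lysozyme activity and defense response to bacterium. Lysozymes degrade the walls of bacteria, and these 3 were all the sequences of the table with that activity. Callose deposition in cell wall during defense response was listed for comp1579863_c0_seq1_4, a cadmium transporter with systemic acquired resistance, the salicylic acid dependent defense of land plants, among its terms.

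The members were then compared by the number of their Trinity component, divided at 100000, a number near the middle of the annotated sequences. As a whole they were evenly placed, with 76 sequences above 100000 and 76 below (50.0% above, compared with 50.3% of all annotated sequences). The role groups were not. Synthesis had 3 of 21 sequences above (14.3%). They were the starch synthase comp104992_c0_seq1_3 and the phosphorylase kinases comp1309742_c0_seq1_1 and comp1315197_c0_seq1_1. Breakdown had 14 of 20 (70.0%), other starch and glycogen terms 12 of 19 (63.2%), and cellulose and other glucans 14 of 19 (73.7%). The sequences with the location cell wall alone had 24 of 61 above (39.3%). All 14 sequences with starch biosynthetic process lay below, between component numbers 54308 and 65690. The 6 breakdown sequences below 100000 lay within the same range. The 6 cellobiosidases lay above, between 264744 and 1336825, as did the 3 beta-amylases, the 3 glucan 1,4-alpha-glucosidases and 6 of the 7 alpha-amylases.

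**Figure D4:**
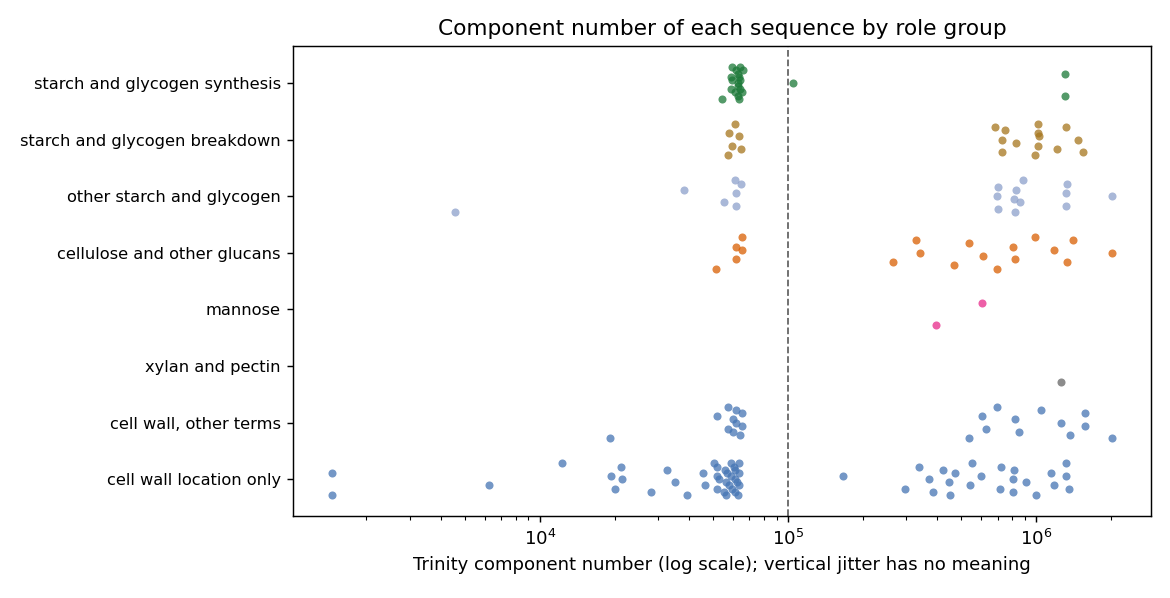
Trinity component number of every member (x axis, log scale) by role group (y axis), 1 point per sequence, with members of several groups drawn in each. The dashed line marks 100000. Starch and glycogen synthesis sits in a narrow band below the line apart from 3 sequences. The 6 breakdown sequences below the line lie within the same band. Breakdown, cellulose and other glucans, mannose, and xylan and pectin lie mostly above the line.

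Plastid locations followed the same division. Of the 41 members with a plastid term, 37 were below 100000, which is 48.7% of the 76 members there, and 4 were above, which is 5.26%. Among all annotated sequences the shares were 16.0% below and 5.83% above. Without the sequences of the location cell wall alone, 21 of 39 members below (53.8%) and 1 of 52 above (1.92%) had a plastid term. Within breakdown, the enzymes were placed differently. The isoamylases and dikinases of breakdown listed a plastid term and were below 100000, and 8 of the 9 amylases were above it without a plastid term.

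The last number of each identifier, read here as the number of the open reading frame within its sequence, differed with the group as well. Its median was 18 for synthesis (quartiles 12 and 40), 3 for breakdown (3 and 7.75), 8 for other starch and glycogen terms (2.5 and 12), 4 for cellulose and other glucans (3 and 8.5), and 7 for the location cell wall alone (4 and 14). The median was 7 for all members and 6 for the whole table. The highest number among the members, 58, belonged to the isoamylase comp59701_c0_seq1_58. The order of the groups by this number was not that of their share above 100000. Other starch and glycogen terms had a higher median than the location cell wall alone and also a larger share above (63.2% and 39.3%). The part of contig length or of the source of a sequence in these counts was not tested.

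Variants of a component added little to the counts. A pair of members came from each of 11 components, each pair with identical terms, and no component gave 3 or more. All 11 pairs lay below 100000. Identical sets of terms across different components were more frequent. The 152 members carried 95 distinct sets, 66 of them on 1 member each, and 78 members shared their set with a member of another component. Over the whole table, the 6812 sequences carried 3434 distinct sets. Sets found on both sides of 100000 numbered 10, among them a set of terms shared by 5 proteasome sequences from 5 components, with 3 above.

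Beyond the terms of the word list, the members listed 336 distinct terms, 169 of them on 1 member. The most frequent was ATP binding with 40 members (26.3%, compared with 28.1% of the table), followed by chloroplast with 31, plasma membrane with 26, nucleolus with 22, and extracellular region and nucleus with 19 each. Cation binding was listed for 13 members of its 18 sequences in the table, and none of these was in the set with the location cell wall alone. They were the 3 branching enzymes, 3 beta-amylases, 2 isoamylases, 2 of the lysozymes, 2 endoglycosylceramidases and the beta-glucosidase. Terms of a response to a stimulus were listed for 31 members (20.4%, compared with 8.65% of the table). By group, these were 1 of 21 in synthesis, 4 of 20 in breakdown, 4 of 19 in other starch and glycogen terms, 1 of 19 in cellulose and other glucans, and 22 of 84 with cell wall terms.

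The neighbouring sugar pathways were counted by terms outside the word list, so that the glucan glucosidase and GDP-mannose terms that chose members do not enter. A term name with glycolysis, gluconeogenesis or pentose-phosphate was listed for 185 sequences of the table (2.72%), and 0 of these were members. This match by word also took in reductive pentose-phosphate cycle, a separate pathway, on 16 sequences. A wider list added names with sucrose, trehalose, UDP-glucose, GDP-mannose, phosphoglucomutase, chitin, glucosidase, galactosidase or mannosidase, and held 270 sequences. It also took in names outside metabolism, such as response to sucrose stimulus on 7 sequences and a chitin-based cuticle term on 1. Of the 270, 7 were members (2.59% of that list, where members were 2.23% of the table). This was 4.61% of the members, where the list was 3.96% of the table. The 7 members were 3 alpha-glucosidases of 13 in the table, 1 beta-glucosidase of 3, 1 phosphoglucomutase of 7, 1 trehalose-phosphate synthase of 3 and 1 UDP-glucose 4-epimerase of 4. Phosphorylase activity without a glycogen term was listed for comp1892753_c0_seq1_2, comp62138_c0_seq1_41 and comp64099_c3_seq1_82. The last 2 listed chloroplast and cytosol, and none of the 3 was a member, so they are not among the 20 breakdown sequences. Terms of 4-alpha-glucanotransferase, pullulanase and 1,3-beta-glucan synthase activity were listed for 0 sequences.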

How the data were processed

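RNA of 7 cultures was sequenced by the authors as paired-end reads, filtered, assembled together with Trinity, searched for reading frames with GetORF and given GO terms with Blastp and GoPipe. The deposited table holds text in 4 columns (sequence, GO identifier, term name, domain) with 39529 lines and 0 columns of values per sample. The table gives no depth per library, and read numbers were not used.

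Members were found by the words given in the report. Counts were made as the identifiers are written, and a term was counted only where listed itself. Role groups were fixed by term. Their first wording put amylopectin with pectin, the glucan alpha-glucosidases with other glucans and regulation of glycogen synthesis with synthesis. This was corrected after the names were seen, along with the placing of glycogen phosphorylase and the NDP-glucose term. Members, lists and the division at 100000 were chosen with earlier results of these data known. No test was made. Named sequences are those of each enzyme activity with up to 8 members, the 5 with the most rule terms and those in 3 groups. Others, such as the starch synthases and members with many terms, were named after their terms were seen. The identifiers matched 0 of 30548 reference genes (*H. lacustris*, assembly ASM3014472v1). Python 3.11.15, NumPy 2.4.6 and Matplotlib 3.10.9 were used.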

Additional observations from a re-analysis of the deposited data

How the results depend on the processing

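Of 45 counts under other settings, 35 stayed within 1.5 times the reported count. Some of the 35 could not move. The plastid setting with chloroplast, thylakoid, plastid and amyloplast words repeated the reported definition. The terms of starch and glycogen synthesis, cellulose and other glucans, mannose, and xylan and pectin held no regulation, response, signal, kinase or phosphatase names to leave out. Counting per Trinity component could not change the members above 100000, because all 11 components with a pair lay below. Of the 10 that moved, 7 came from planned settings. The narrower list of starch, glycogen, amylase and glucan gave 60 members. With molecular function terms only, there were 48 members in all, 7 in other starch and glycogen, 9 in cellulose and other glucans, and 0 in each of mannose, xylan and pectin, and cell wall, whose terms are processes and locations. The settings added after seeing the data moved 3 counts. Leaving out the location cell wall alone gave 91 members and 22 with plastid terms, and the role words as first written gave 3 for xylan and pectin. Among the counts that did not move, members became 141 per Trinity component and 206 with the wider list, and those above the boundary 74 at 200000 and 76 at 80000. The planned log2 scaling and filter of sample values had nothing to act on and was left out. No paired analysis was possible because each condition had 1 library and no test between conditions was made. Contig length, read support and the organism of the best match stand in no column, and their part in the counts was not tested.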

Other observations

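The edge of the word list can be seen in a few sequences. Component comp61452_c0 gave 3 annotated sequences with the same 7 terms of an RNA helicase. Of these, comp61452_c0_seq7_34 and comp61452_c0_seq9_29 also listed cell wall and were members, and comp61452_c0_seq12_34 did not and was no member. It was the only annotated sequence in a member's component that the list left out. Fungal-type cell wall terms, which were not counted, were listed for 3 sequences. One of these, the guanylyltransferase comp604674_c0_seq1_4, was a member through its mannose and mannoprotein terms. The word mannan found 0 terms, and pectin found amylopectin biosynthetic process on 2 sequences and pectin catabolic process on 1.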
